A study of Mus musculus with 6 samples.

Results

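Whole mouse ovaries were compared between OHSS mice that had received nintedanib and mice of the group COH, with 2 RNA-seq libraries on each side. These 4 libraries were chosen by their sample titles and make up 4 of the 6 libraries of the study, whose other 2 come from OHSS mice without the drug. OHSS is ovarian hyperstimulation syndrome, and the labels do not spell out COH. All mice were of the strain ICR, an outbred stock, and the frozen tissue was the ovary in every group. The sources used here do not give the dose, route or time of the drug, the hormones, the age of the mice or the number of animals behind a library. Whether replicate libraries stem from separate animals is not said, so a p-value here measures the spread between samples alone, and that spread may be technical. Of 51826 genes in the count table, 19027 had enough counts to be tested. The comparison asks in what respect the ovary of treated OHSS mice differs from that of the COH group, and the OHSS libraries are set beside it to show which differences were already there without the drug.

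In ovarian hyperstimulation syndrome, strong gonadotropin stimulation gives enlarged ovaries with many luteinized follicles, and vascular endothelial growth factor (VEGF) from granulosa and luteal cells makes vessels leak. Nintedanib (BIBF1120) is a small molecule that blocks receptor kinases of VEGF, of platelet-derived growth factors (PDGF) and of fibroblast growth factors (FGF). Granulosa cells surround the oocyte and make oestrogen, theca cells supply androgen to them, and luteal cells make progesterone from cholesterol. Type I interferons act through a transcription factor complex that holds IRF9 and binds an element called ISRE in the promoters of antiviral genes.

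Genes of the interferon response were higher in both treated libraries than in COH, and the bases before the start sites of 3 of them are shown here because that element can be read in them. The sequences are RefSeq promoters of the mouse build GRCm38.p6, given 5′ to 3′ on the strand of the gene, and capitals mark matches to the ISRE (GAAA, any 2 bases, GAAA) on either strand, where overlapping matches run together. The Isg15 stretch is chr4:156200825-156200934 on the minus strand, that of Ifit1 is chr19:34640754-34640863 and that of Ifit3 is chr19:34583357-34583466, both on the plus strand.
Isg15: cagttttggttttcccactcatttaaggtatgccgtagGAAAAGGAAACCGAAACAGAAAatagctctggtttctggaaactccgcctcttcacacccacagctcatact
Ifit1: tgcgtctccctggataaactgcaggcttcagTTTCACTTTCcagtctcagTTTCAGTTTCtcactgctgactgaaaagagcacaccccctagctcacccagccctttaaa
Ifit3: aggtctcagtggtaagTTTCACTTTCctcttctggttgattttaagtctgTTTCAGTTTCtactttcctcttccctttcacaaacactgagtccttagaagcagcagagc
The Isg15 stretch holds 3 overlapping matches, and those of Ifit1 and Ifit3 hold 2 each on the opposite strand. Of the 20 interferon genes, 14 had a promoter in the table, and 9 of these 14 (64.3%) held the motif within 250 bases before the start, against 412 of 12507 tested genes (3.29%). Among genes of major histocompatibility complex (MHC) class I and peptide loading the motif was found in 1 of 9 promoters. A match describes the letters only and is no evidence of binding in these ovaries.

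The promoter of H2-Aa, a class II gene that lay lower with nintedanib, is shown as the counterpart, from chr17:34287824-34287933 on the minus strand, with the reverse complement of the motif CCAAT in capitals.
H2-Aa: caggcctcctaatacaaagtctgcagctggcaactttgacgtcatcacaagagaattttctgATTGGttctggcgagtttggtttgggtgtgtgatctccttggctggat
The CCAAT letters are part of the Y box of class II promoters. They were found on either strand in 6 of 6 class II promoters in the table and in 39.5% of tested genes.

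Total counts were 34716751 and 28609601 in the COH libraries and 28498435 and 31308357 with nintedanib. Levels are CPM, the counts scaled to a common library total, with no scaling by gene length. Across tested genes, correlations of log2 CPM between libraries ran from 0.965 to 0.986, and nintedanib replicate 2 stood apart most, with 0.965 to 0.973 against the other 5. Mitochondrial transcripts took 5.21 and 5.96% of counts in COH and 5.88 and 5.72% with nintedanib. Of 9 ovary markers, the lowest in these 4 libraries was Zp3, an egg coat protein, at 59.4 and 44.2 CPM in COH and 30.2 and 50.8 CPM with nintedanib. The highest was Cyp11a1, which starts steroid synthesis, at 10928 and 10913 CPM in COH and 11269 and 8771 CPM with nintedanib. Foxl2, the transcription factor that keeps granulosa cell identity, stood at 281 and 247 CPM in COH and 299 and 261 CPM with nintedanib. Bulk RNA cannot tell fewer cells of a type from less RNA per cell.

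Genes past the test were few. At a Benjamini-Hochberg adjusted p below 0.05 in edgeR's quasi-likelihood test, 4 genes rose (0.021% of the genes tested) and 1 fell (0.00526%) in nintedanib-treated OHSS ovaries against COH, 0.0263% in all. Tmem170b, Ak4 and Fggy rose and stood at similar levels in OHSS without the drug, whereas Rpsa-ps10 rose although its levels in OHSS lay under both COH libraries, and Aldh3b2 fell although its levels in OHSS lay above both. An exact permutation of 2 libraries against 2 cannot give a two-sided p below 0.333, so all calls rest on the modelled variance. That variance joins each gene's own spread, taken as shared by the 3 groups, with a prior from all genes tested. Levels for these genes and for others described below are plotted by library.

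**Figure D1:**
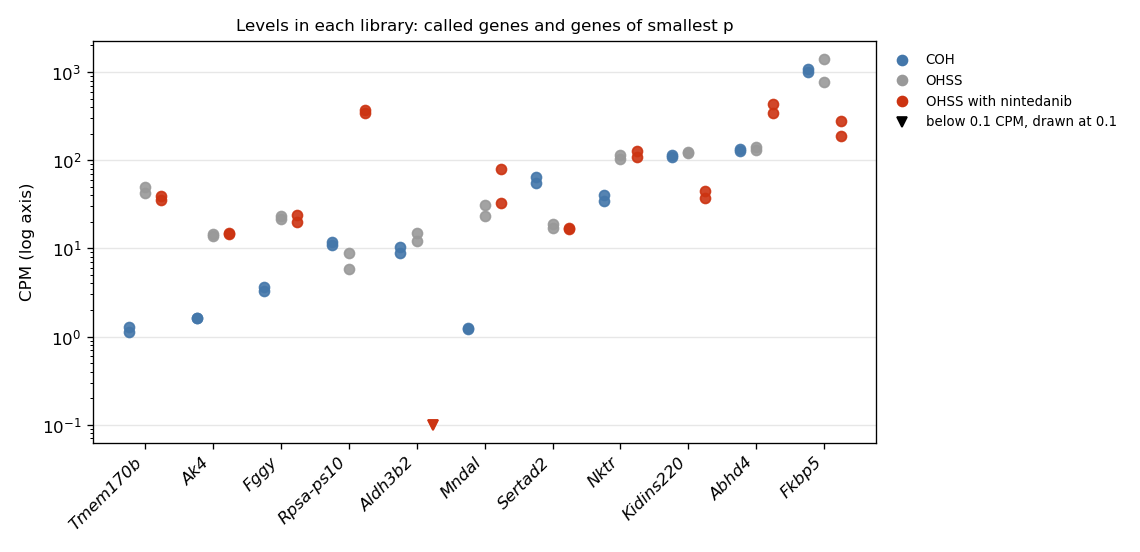
CPM on a log axis for 11 genes (horizontal axis), each point 1 library, coloured by group. The nintedanib points of Tmem170b, Ak4 and Fggy sit with the OHSS points and above COH, and those of Rpsa-ps10, Aldh3b2, Kidins220 and Abhd4 sit apart from both other groups.

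Tmem170b (ENSMUSG00000087370), which encodes a small transmembrane protein, stood at 1.12 and 1.3 CPM in COH, 42.6 and 49.0 CPM in OHSS and 35.7 and 39.1 CPM with nintedanib. Its log2 fold change against COH was 4.95 (SE 0.171), with an edgeR adjusted p of 0.00729. In OHSS without the drug it differed from COH by 5.24, and nintedanib against OHSS gave -0.29 (SE 0.140). The 2 comparisons against COH share the COH libraries, here and for every gene below, and are not separate evidence. Ak4 (ENSMUSG00000028527), a mitochondrial adenylate kinase known as a hypoxia-responsive gene, stood at 1.60 and 1.61 CPM in COH, 14.7 and 13.8 CPM in OHSS and 14.5 and 14.9 CPM with nintedanib. It rose by a log2 fold change of 3.19 (SE 0.167), with an edgeR adjusted p of 0.0222. The difference between nintedanib and OHSS was 0.044 (SE 0.149). Fggy (ENSMUSG00000028573), a carbohydrate kinase, stood at 3.29 and 3.64 CPM in COH, 23.1 and 21.6 CPM in OHSS and 20.01 and 24 CPM with nintedanib. Its log2 fold change was 2.67 (SE 0.169) and its edgeR adjusted p 0.0379, and nintedanib against OHSS gave -0.023 (SE 0.157). For all 3 genes every nintedanib and OHSS library lay above both COH libraries.

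Aldh3b2 (ENSMUSG00000075296), an aldehyde dehydrogenase of lipid aldehydes, was the gene that fell. It stood at 10.3 and 8.93 CPM in COH, 14.9 and 12 CPM in OHSS and 0 and 0.0312 CPM with nintedanib, with 622 counts over the COH libraries and 1 count over the treated ones. Its fitted log2 fold change of -8.88 (SE 0.536) rests on that single count (edgeR adjusted p = 0.0358). Counted in read pairs, the COH level was 295 times the treated level, with a 95% exact interval for counting error alone of 52.6 to 11704. The adjacent copy Aldh3b3 stood at 2.53 and 2.66 CPM in COH, 3.50 and 2.51 CPM in OHSS and 0 and 0.0312 CPM with nintedanib, an edgeR adjusted p of 0.123, while the third gene of the family beside them, Aldh3b1, gave 104 and 104 CPM in COH, 62.6 and 109.9 CPM in OHSS and 107 and 66.4 CPM with nintedanib. Aldh3b2 lies just under the level set for naming genes, and it and its neighbours were named after their values were seen.

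Rpsa-ps10 (ENSMUSG00000047676), a pseudogene of the ribosomal protein Rpsa, stood at 11 and 11.9 CPM in COH, 8.78 and 5.81 CPM in OHSS and 346 and 374 CPM with nintedanib. It rose by a log2 fold change of 4.97 (SE 0.235), with an edgeR adjusted p of 0.0194, and was also the only gene edgeR called between nintedanib and OHSS (adjusted p = 0.0241, 0.00526% of genes). Its transcript is 99.3% identical to Rpsa over all 885 bases, so the counting may have split reads between them and both levels are uncertain. Rpsa itself stood at 1139 and 1039 CPM in COH, 904 and 726 CPM in OHSS and 623 and 615 CPM with nintedanib. The sum of both genes was 1149.7 and 1050.4 CPM in COH, 913 and 731 CPM in OHSS and 969 and 989 CPM with nintedanib. The pseudogene was named after its values were seen.

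These calls were sensitive to single libraries. With COH replicate 1 left out no gene was called by edgeR and 1260 had an unadjusted p below 0.05, and with COH replicate 2 left out 0 were called and 862 passed that level. Without nintedanib replicate 1 it called 53, the 5 among them, and without nintedanib replicate 2 it called 3, of which 1, Tmem170b, was among the 5. Without OHSS replicate 1 or 2, which enter only the shared variance, it called 4 and 2 genes, of which Tmem170b and Rpsa-ps10 were among the 5 both times. Over all genes tested, 1069 (5.62%) were higher and 776 (4.08%) lower at an unadjusted p below 0.05, and both treated libraries lay above both COH libraries for 22.3% of genes and below for 22.7%. By DESeq2 436 genes were called (311 higher, 125 lower), by limma voom 2. These percentages are the background for the gene groups below, along with a median log2 fold change of -0.00099 and a higher mean in 49.9% of genes.

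Beyond these calls, the genes of smallest p were read in 2 sets: those that differed from COH in OHSS as well, and those that stood near COH in OHSS (a log2 difference within 0.3) and differed under the drug. None of the genes named from them passed edgeR's adjusted threshold, whereas DESeq2 called all of those named. In the first set, Sertad2, a regulator of E2F-dependent transcription, was lower in both conditions, at 54.5 and 63.9 CPM in COH, 17.2 and 18.9 CPM in OHSS and 16.4 and 16.9 CPM with nintedanib. Against COH its log2 fold change was -1.83 (SE 0.137) with nintedanib (edgeR adjusted p = 0.0750) and -1.71 in OHSS. Nktr, a protein with a cyclophilin domain, stood at 40.1 and 34.2 CPM in COH, 102 and 114 CPM in OHSS and 109 and 128 CPM with nintedanib, a log2 fold change of 1.67 (SE 0.145) against COH. An antisense transcript, E530011L22Rik, overlaps it at 4.04 CPM in COH. Rassf2, a Ras-association protein, stood at 11.3 and 10.9 CPM in COH, 50.3 and 37.3 CPM in OHSS and 40.4 and 36.2 CPM with nintedanib. Selenoi, which makes phosphatidylethanolamine, stood at 4.78 and 4.62 CPM in COH, 31.7 and 38.4 CPM in OHSS and 41.3 and 24.2 CPM with nintedanib. That neither group of OHSS libraries, with or without the drug, overlapped COH was a condition for entering this set.

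Members of the same set also included Mndal, of the interferon-inducible p200 family, at 1.21 and 1.26 CPM in COH, 31.3 and 23.1 CPM in OHSS and 32.8 and 79.1 CPM with nintedanib. It overlaps Ifi211 and Ifi203 on the same strand and resembles Ifi211, so its level is uncertain. Apol6, an apolipoprotein L, stood at 2.87 and 2.70 CPM in COH, 19.0 and 22.6 CPM in OHSS and 12.1 and 9.35 CPM with nintedanib. Ptprq, a receptor tyrosine phosphatase, stood at 3.68 and 2.42 CPM in COH, 7.75 and 8.35 CPM in OHSS and 12.4 and 14.0 CPM with nintedanib, in the order of the groups with no overlap, and had a log2 fold change of 2.11 (SE 0.260) against COH. Cpxm2, a carboxypeptidase-like secreted protein, stood at 28.6 and 30.8 CPM in COH, 17.3 and 18.0 CPM in OHSS and 7.49 and 5.02 CPM with nintedanib, a log2 fold change of -2.25 (SE 0.224), and is annotated as overlapping Fgfr2. Cadm4, a cell adhesion molecule, stood at 61.0 and 63.8 CPM in COH, 35.5 and 41.3 CPM in OHSS and 32.3 and 27.7 CPM with nintedanib, and Nkiras2, an inhibitor of NF-kB signalling that overlaps Dnajc7 on the opposite strand, at 30.2 and 54.3 CPM in COH, 9.42 and 12.3 CPM in OHSS and 9.82 and 7.45 CPM with nintedanib. The mitochondrial ATP synthase gene mt-Atp6 stood at 802 and 997 CPM in COH, 5454 and 5335 CPM in OHSS and 3500.1 and 4403 CPM with nintedanib, but it shares its bases with the nuclear copy Gm10925 and its level is uncertain. The sum of mt-Atp6 and Gm10925 was 5093 and 6043 CPM in COH, 11345 and 10957 CPM in OHSS and 8237 and 8954 CPM with nintedanib.

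In the second set, the rule itself required OHSS to stand close to COH and the treated libraries not to overlap COH. It also required an unadjusted edgeR p below 0.05 against OHSS in the same direction. Kidins220, a scaffold of neurotrophin receptors, stood at 115 and 109 CPM in COH, 121 and 125 CPM in OHSS and 44.3 and 37.2 CPM with nintedanib. Its log2 fold change was -1.46 (SE 0.122) against COH (edgeR adjusted p = 0.101), 0.14 for OHSS against COH and -1.60 (SE 0.122) for nintedanib against OHSS. Abhd4, a lipase of N-acyl phospholipid metabolism, lay the other way, at 125 and 134 CPM in COH, 139 and 130.1 CPM in OHSS and 434 and 343 CPM with nintedanib. It differed from COH by 1.58 (SE 0.144) and from OHSS by 1.53 (SE 0.144). Fkbp5, a co-chaperone of the glucocorticoid receptor that glucocorticoids and progestins induce, stood at 999.8 and 1078 CPM in COH, 777 and 1386 CPM in OHSS and 278 and 186 CPM with nintedanib. Its log2 fold change was -2.16 (SE 0.338) against COH and -2.22 (SE 0.339) against OHSS, although the OHSS libraries themselves differed widely.

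Several others of this set follow with their levels. Thbs4, a thrombospondin of the matrix, stood at 52.6 and 67.6 CPM in COH, 64.4 and 66.2 CPM in OHSS and 135 and 141 CPM with nintedanib, and Atp6v1e1, a subunit of the vacuolar proton pump, at 91.8 and 91.9 CPM in COH, 107 and 105 CPM in OHSS and 155 and 166 CPM with nintedanib. Lower levels were found for Epn2, an endocytic adaptor, at 67.0 and 58.1 CPM in COH, 57.6 and 47.7 CPM in OHSS and 19.3 and 24.6 CPM with nintedanib. Rsrc1, a splicing factor, stood at 36.6 and 41.1 CPM in COH, 37.0 and 35.3 CPM in OHSS and 19.5 and 15.6 CPM with nintedanib. Yeats4, a reader of acetylated histones, stood at 49.8 and 48.5 CPM in COH, 49.7 and 48.3 CPM in OHSS and 29.2 and 24.1 CPM with nintedanib. The distance of these 5 genes from COH and OHSS follows from the rule that chose them. Their edgeR adjusted p against COH lay between 0.189 and 0.292. Outside this set, Mfap3, a microfibril-associated protein, stood higher at 4.69 and 9.04 CPM in COH, 14.2 and 12.7 CPM in OHSS and 63.9 and 63.7 CPM with nintedanib. The log2 fold change was 3.22 (SE 0.328) against COH and 2.24 (SE 0.314) against OHSS, with part of the distance from COH already present in OHSS. Also of the set, Hnrnpc, a nuclear RNA-binding protein, stood at 305 and 340.0 CPM in COH, 259.7 and 269.6 CPM in OHSS and 133 and 168 CPM with nintedanib, and Wnt10a, a secreted Wnt ligand, at 11 and 10.02 CPM in COH, 6.85 and 10.3 CPM in OHSS and 2.98 and 2.90 CPM with nintedanib.

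Interferon response genes stood higher in treated ovaries than in COH throughout. Higher means were found for 20 of 20 members, none of which edgeR called over all genes, and the median log2 fold change was 4.64 beside -0.00099 over all genes. For 20 of 20 both treated libraries lay above both COH libraries (22.3% over all genes), and 20 of 20 had an unadjusted p below 0.05 (5.62% over all genes). Oasl2, an antiviral oligoadenylate synthetase relative, had the smallest p of the list and stood at 23.5 and 22.5 CPM in COH, 147 and 70.1 CPM in OHSS and 173 and 217 CPM with nintedanib. Against COH it gave a log2 fold change of 3.09 (SE 0.376), with an edgeR adjusted p of 0.222. Oas2, which senses double-stranded RNA, stood at 4.75 and 3.96 CPM in COH, 81.4 and 20.3 CPM in OHSS and 55.8 and 158 CPM with nintedanib, a log2 fold change of 4.61 (SE 0.877). Mx2, an antiviral GTPase that is partly near-identical to Mx1, stood at 2.50 and 2.38 CPM in COH, 60.5 and 17.0 CPM in OHSS and 24.5 and 106 CPM with nintedanib, and Oasl1 at 1.60 and 1.40 CPM in COH, 12.9 and 5.25 CPM in OHSS and 9.89 and 19.6 CPM with nintedanib.

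The replicates differed more from each other than the treated group did from OHSS. The list median lay 3.24 and 5.15 above the COH mean in nintedanib replicates 1 and 2 and 4.27 and 1.77 above it in OHSS replicates 1 and 2. For the genes whose promoters are printed above, Ifit1, which binds viral RNA, stood at 1.60 and 1.82 CPM in COH, 136 and 20.4 CPM in OHSS and 44.3 and 515 CPM with nintedanib. Ifit3, its partner, stood at 3.32 and 4.24 CPM in COH, 157 and 24.4 CPM in OHSS and 49.7 and 505 CPM with nintedanib, and Isg15, a ubiquitin-like modifier, at 2.89 and 2.31 CPM in COH, 104 and 11.4 CPM in OHSS and 37.2 and 175 CPM with nintedanib. These 3 were chosen for their promoters after their values were seen. In all 3, the treated and OHSS libraries overlapped. Nintedanib against OHSS gave a list median of 0.94, with 0 of 20 genes at an unadjusted p below 0.05 (7.42% over all genes in that comparison). Irf7, the factor that amplifies interferon production, stood at 6.04 and 10.4 CPM in COH and 94.0 and 243 CPM with nintedanib.

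Leaving out nintedanib replicate 2 gave a median of 3.30, and leaving out replicate 1 gave 5.18. The number of members at an unadjusted p below 0.05 was 9 without COH replicate 1, 12 without COH replicate 2, 14 without nintedanib replicate 2 and 10 by limma voom, and DESeq2 called 17. Markers of immune cells were not raised with it as a list. Macrophage and monocyte markers summed to 642 and 712 CPM in COH and 488 and 446 CPM with nintedanib, and lymphocyte markers to 19.3 and 22.9 and 21 and 14.0 CPM.

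**Figure D2:**
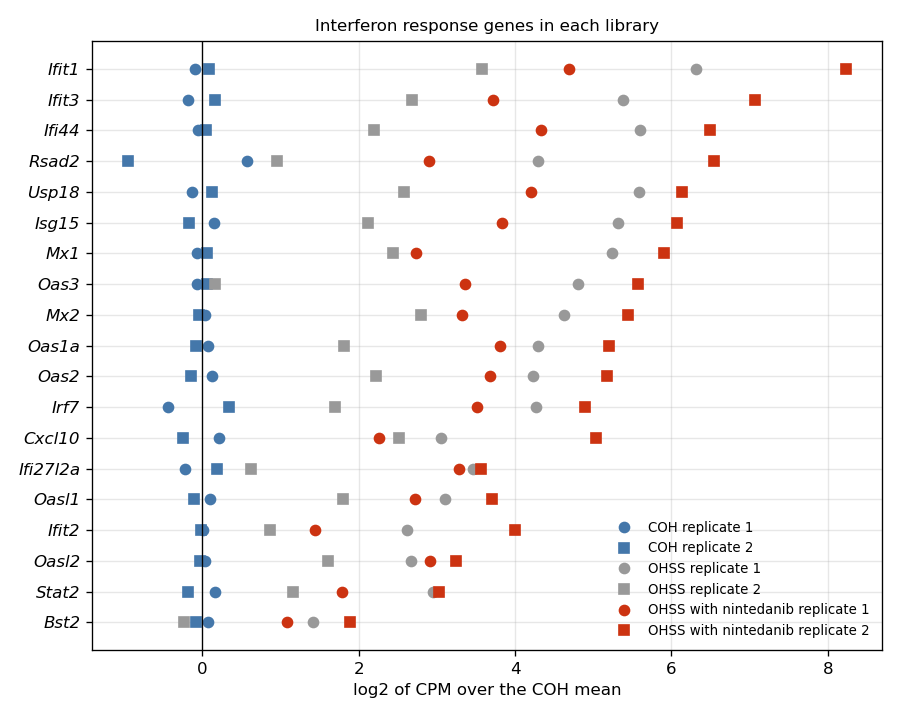
For the interferon response genes shown (vertical axis), the log2 of CPM over the COH mean (horizontal axis), with a circle for replicate 1 and a square for replicate 2 of each group. Both treated libraries lie to the right of both COH libraries for every gene, and nintedanib replicate 2 lies furthest right for each.

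Class I antigen presentation, which interferon also induces, stood higher as well. All 11 measured genes of MHC class I and peptide loading had a higher mean than in COH, with a median log2 fold change of 0.86 against 0.34 for OHSS. For nintedanib against OHSS, 0 of 11 had an unadjusted p below 0.05 (7.42% over all genes in that comparison). Summed levels were 1289 and 1435 CPM in COH, 2331 and 1205 CPM in OHSS and 2519 and 2386 CPM with nintedanib. Both treated libraries lay above both COH libraries for 9 of 11 (22.3% over all genes). Of the 11, 7 were higher at an unadjusted p below 0.05 (5.62% over all genes). Tap2, a peptide transporter, stood at 66.8 and 69.1 CPM in COH, 109 and 85.5 CPM in OHSS and 103 and 117 CPM with nintedanib, a log2 fold change of 0.69 (SE 0.151). Nlrc5, the transactivator of class I genes, stood at 3.37 and 4.20 CPM in COH, 12.54 and 4.88 CPM in OHSS and 9.68 and 31.5 CPM with nintedanib. B2m, the class I light chain, stood at 315 and 421 CPM in COH, 794 and 338 CPM in OHSS and 761 and 1016 CPM with nintedanib, a log2 fold change of 1.27 (SE 0.427), with OHSS on both sides of COH. Of the 2 treated libraries, only replicate 1 lay above COH for the class I heavy chains H2-K1 and H2-D1. With nintedanib they stood at 529 and 255 CPM and at 705 and 305 CPM. In COH they stood at 265 and 277 CPM and at 353 and 394 CPM. Without COH replicate 1, COH replicate 2 or nintedanib replicate 2, 1 member had an unadjusted p below 0.05.

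Class II antigen presentation stood lower, in the opposite direction to class I. Of 9 class II genes 8 had a lower mean in treated ovaries than in COH, with a median log2 fold change of -1.39 beside -0.37 for OHSS against COH. Both treated libraries lay below both COH libraries for 7 of 9 (22.7% over all genes), and 6 of 9 had an unadjusted p below 0.05 (4.08% over all genes). H2-Ab1, a class II beta chain, stood at 47.2 and 52.4 CPM in COH, 26.7 and 28.9 CPM in OHSS and 13.8 and 11.1 CPM with nintedanib. Its log2 fold change was -2.0 (SE 0.158) against COH, with an edgeR adjusted p of 0.0856, and -1.16 (SE 0.155) against OHSS. H2-Aa, the alpha chain whose promoter is printed above, stood at 37.2 and 39.0 CPM in COH, 22.2 and 27.5 CPM in OHSS and 11.2 and 13.3 CPM with nintedanib, a log2 fold change of -1.63 (SE 0.168). Cd74, the invariant chain, stood at 155 and 137 CPM in COH, 109 and 124 CPM in OHSS and 54.7 and 31.4 CPM with nintedanib, a log2 fold change of -1.77 (SE 0.276) against COH and -1.44 (SE 0.273) against OHSS.

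The 3 genes followed 1 order, with COH highest, OHSS between and the treated libraries lowest, and no library of a group overlapped another group. Ciita, the master regulator of class II transcription, lay low in all libraries, at 2.16 and 1.75 CPM in COH, 1.22 and 1.81 CPM in OHSS and 1.08 and 0.873 CPM with nintedanib, and H2-DMa, which loads peptides, at 9.44 and 9.74 CPM in COH, 6.78 and 7.46 CPM in OHSS and 6.24 and 4.64 CPM with nintedanib. H2-Eb1 went the other way, at 2.08 and 2.07 CPM in COH, 1.74 and 11.8 CPM in OHSS and 1.32 and 10.3 CPM with nintedanib, with replicate 2 of OHSS and of nintedanib above the rest. Without nintedanib replicate 2 its log2 fold change was -0.65. The number of class II genes lower at an unadjusted p below 0.05 was 4 without COH replicate 1, 3 without COH replicate 2 and 4 without nintedanib replicate 1, and the median with a library left out ran from -1.67 to -1.13.

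Macrophage and monocyte markers, which cover only part of the cells that carry class II, were read beside this. Of 17 macrophage and monocyte markers, 12 had a lower and 5 a higher mean, with a median log2 fold change of -0.16, and none was at 0 in any library. In fits without 1 library that median ran from -0.27 without COH replicate 1 to 0.0062 without COH replicate 2. Lyz2, the lysozyme of myeloid cells, which is near-identical to the much lower Lyz1, stood at 239.5 and 262 CPM in COH, 167 and 137 CPM in OHSS and 82.2 and 50.7 CPM with nintedanib, a log2 fold change of -1.92 (SE 0.253). Ccr2, the monocyte chemokine receptor, stood at 5.23 and 5.46 CPM in COH, 3.67 and 4.16 CPM in OHSS and 2.98 and 2.68 CPM with nintedanib. The tissue macrophage markers Adgre1 and C1qa differed by -0.18 (SE 0.135) and -0.081 (SE 0.282), and Csf1r, the receptor of macrophage growth factor and itself a target of nintedanib, by -0.33 (SE 0.143). The summed level of the 17 markers was 642 and 712 CPM in COH and 488 and 446 CPM with nintedanib, and with Lyz2 left out it was 403 and 450.1 CPM against 406 and 396 CPM. The part of cell numbers in the class II result was not tested.

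Complement genes lay on both sides of COH. C3, the central component, stood at 68.9 and 67.0 CPM in COH, 71.0 and 77.6 CPM in OHSS and 37.6 and 40.6 CPM with nintedanib, a log2 fold change of -0.80 (SE 0.107) against COH and -0.93 (SE 0.108) against OHSS, with no overlap. C1s1, a protease of the classical pathway with the near-identical copy C1s2, stood at 99.4 and 91.8 CPM in COH, 67.7 and 68.8 CPM in OHSS and 67.1 and 57.3 CPM with nintedanib. C4b, near-identical to C4a, was higher at 6.52 and 8.09 CPM in COH, 20.3 and 7.06 CPM in OHSS and 23.9 and 26.1 CPM with nintedanib, as was Masp1, a lectin pathway protease, at 5.82 and 3.99 CPM in COH, 7.88 and 9.73 CPM in OHSS and 14.4 and 18.0 CPM with nintedanib. Masp1 overlaps the interferon gene Rtp4 on the opposite strand, which stood at 3.51 and 3.22 CPM in COH and 21.9 and 56.5 CPM with nintedanib, so reads of the 2 cannot be told apart without strand. Over the 13 members the median was -0.10, and with 1 library left out it ran from -0.13 without nintedanib replicate 1 to 0.067 without COH replicate 2.

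**Figure D3:**
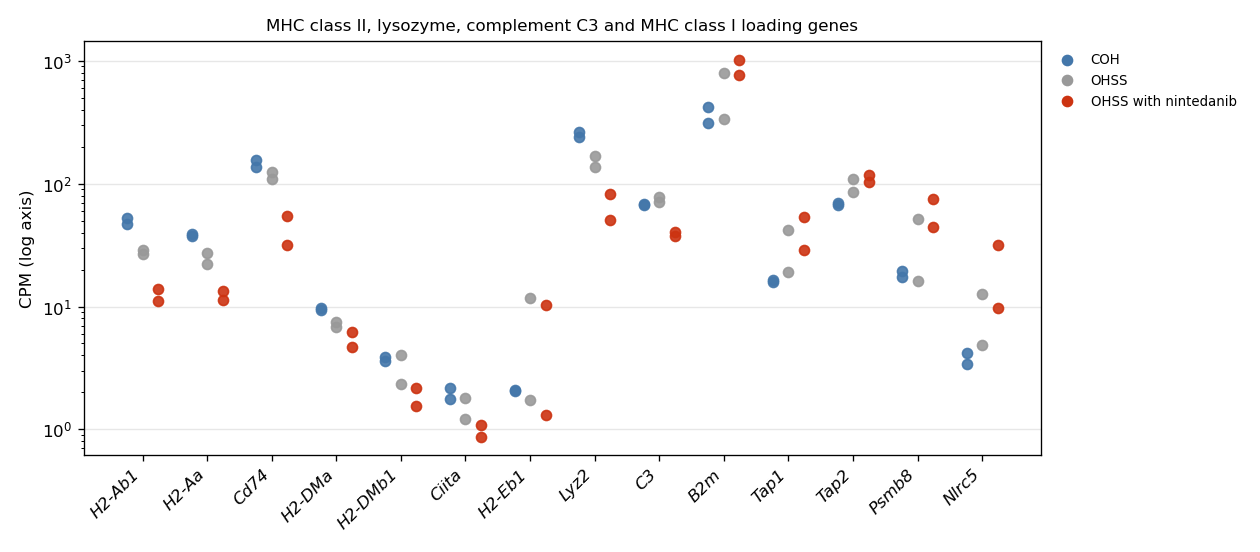
CPM on a log axis for 14 immune genes (horizontal axis), each point 1 library, coloured by group. H2-Ab1, H2-Aa, Cd74 and Lyz2 step down from COH through OHSS to nintedanib, C3 is lower with nintedanib, and B2m, Tap1, Tap2, Psmb8 and Nlrc5 lie above COH with nintedanib.

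For the kinases that nintedanib targets, neither edgeR nor DESeq2 called a member, and the median lay near that of COH. Over all 19027 genes edgeR called 0.0263% and DESeq2 436 genes, so 0 calls among 15 do not set the targets apart. Of 15 target kinases 6 had a higher and 9 a lower mean, with a median log2 fold change of -0.11. At an unadjusted edgeR p below 0.05 there were 0 (5.62% higher and 4.08% lower over all genes). Both treated libraries lay above both COH libraries for 3 and below for 5 (22.3% and 22.7% over all genes). With 1 library left out the median ran from -0.28 without nintedanib replicate 1 to 0.16 without COH replicate 1. Kdr, the main VEGF receptor, stood at 94.1 and 81.5 CPM in COH, 85.9 and 76.4 CPM in OHSS and 103 and 91.3 CPM with nintedanib, a log2 fold change of 0.15 (SE 0.131) against COH. Flt1, a decoy-like VEGF receptor, stood at 43.4 and 40.0 CPM in COH, 50.2 and 42.5 CPM in OHSS and 57.5 and 48.3 CPM with nintedanib, a log2 fold change of 0.34 (SE 0.146), and Flt4, the receptor of lymphatic vessels, differed by 0.21 (SE 0.142). Pdgfra and Pdgfrb, the PDGF receptors of stroma and pericytes, stood lower with log2 fold changes of -0.32 (SE 0.160) and -0.55 (SE 0.248). Pdgfrb was at 257 and 257 CPM in COH and 211 and 139 CPM with nintedanib. Fgfr1, Fgfr2 and Fgfr3 differed by -0.11 (SE 0.183), -0.12 (SE 0.295) and -0.67 (SE 0.463), and the sign of all 3 turned with 1 library left out.

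Among ligands, Vegfa stood at 103 and 89.7 CPM in COH, 167 and 111 CPM in OHSS and 134 and 121 CPM with nintedanib, a log2 fold change of 0.40 (SE 0.212) against COH beside 0.53 for OHSS. Both treated libraries lay above both COH libraries, but its edgeR adjusted p was 0.575. Vegfd, a ligand of the lymphatic receptor, stood at 13.0 and 10.8 CPM in COH, 15.1 and 12.3 CPM in OHSS and 22.8 and 16 CPM with nintedanib, a log2 fold change of 0.70 (SE 0.237). Of the PDGF ligands, Pdgfd stood higher at 17.4 and 18.8 CPM in COH and 31.7 and 22.2 CPM with nintedanib and Pdgfa lower at 21.8 and 24.6 CPM in COH and 14.9 and 18.5 CPM with nintedanib. The VEGF list had a median of 0.057 over 7 genes, the PDGF and FGF ligands -0.19 over 11 and the angiopoietin system 0.16 over 7. With 1 library left out these ran from 0.053 without OHSS replicate 1 to 0.12 without nintedanib replicate 2, from -0.58 without nintedanib replicate 2 to 0.32 without COH replicate 2 and from 0.10 without COH replicate 2 to 0.24 without nintedanib replicate 2.

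Endothelial genes lay close to COH. The median log2 fold change of 23 endothelial identity genes was 0.054 against COH, beside -0.19 for OHSS against COH and 0.26 for nintedanib against OHSS, with 13 higher and 10 lower. Their summed level was 1518 and 1486 CPM in COH, 1331 and 1449 CPM in OHSS and 1603 and 1449 CPM with nintedanib. Pecam1 differed from COH by -0.066 (SE 0.202). Cdh5, the cadherin of endothelial junctions, stood at 143 and 161 CPM in COH, 121 and 135 CPM in OHSS and 178 and 207 CPM with nintedanib, a log2 fold change of 0.34 (SE 0.129) against COH and 0.59 (SE 0.129) against OHSS. Cldn5, the claudin of endothelial tight junctions, remained under COH, at 73.0 and 73.2 CPM in COH, 43.7 and 50.1 CPM in OHSS and 56.6 and 63.3 CPM with nintedanib, with a log2 fold change of -0.29 (SE 0.121). Vessel barrier genes had a median of 0.042 over 19 members and tip cell genes 0.073 over 16. In fits without 1 library the endothelial median ran from 0.03 without COH replicate 2 to 0.11 without COH replicate 1, the barrier median from -0.068 without COH replicate 2 to 0.12 without COH replicate 1 and the tip cell median from -0.061 without nintedanib replicate 1 to 0.16 without COH replicate 1.

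A few vascular genes lay further from COH. None of them was called by edgeR, while DESeq2 called Notch4, Ace and Aqp1. Notch4, an endothelial Notch receptor, stood at 16.2 and 11.7 CPM in COH, 21.9 and 23.4 CPM in OHSS and 30.6 and 26.1 CPM with nintedanib, a log2 fold change of 1.02 (SE 0.199). Ace, the angiotensin-converting enzyme, stood at 24.1 and 27.0 CPM in COH, 22.2 and 25.0 CPM in OHSS and 39.9 and 44.9 CPM with nintedanib, a log2 fold change of 0.73 (SE 0.138) against COH and 0.84 (SE 0.138) against OHSS, where OHSS did not stand apart from COH. Aqp1, the water channel of endothelium, was lower at 52.9 and 41.4 CPM in COH, 24 and 34.2 CPM in OHSS and 25.4 and 21.8 CPM with nintedanib, a log2 fold change of -1.0 (SE 0.227). Sele, the E-selectin of activated endothelium, stood at 0.365 and 0.350 CPM in COH, 1.16 and 1.52 CPM in OHSS and 1.28 and 1.22 CPM with nintedanib.

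Cholesterol synthesis genes stood above COH, by less than in OHSS without the drug. From squalene to cholesterol, 11 of 13 genes had a higher mean, with medians of 0.44 for nintedanib and 0.85 for OHSS against COH. In the mevalonate arm it was 8 of 9 genes, with medians of 0.23 and 0.52. At an unadjusted p below 0.05 the 2 lists had 5 and 3 higher members (5.62% of all genes). Nintedanib against OHSS had 6 and 3 lower members at that level (3.47% of all genes).

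Several members stood between OHSS and COH. Msmo1, a sterol demethylation enzyme, stood at 159 and 182 CPM in COH, 356 and 319 CPM in OHSS and 223 and 214 CPM with nintedanib, a log2 fold change of 0.36 (SE 0.116) against COH and -0.63 (SE 0.116) against OHSS. Idi1, an isomerase with a partly identical copy Gm13502, stood at 113 and 93.3 CPM in COH, 274 and 236 CPM in OHSS and 168 and 175 CPM with nintedanib, and Nsdhl at 125 and 126 CPM in COH, 280.4 and 271 CPM in OHSS and 195 and 145 CPM with nintedanib. Insig1, which holds the sterol sensor in the endoplasmic reticulum, stood at 82.9 and 97.7 CPM in COH, 194 and 204 CPM in OHSS and 124 and 121 CPM with nintedanib, with 0.44 (SE 0.115) against COH and -0.70 (SE 0.115) against OHSS. Among 16 genes of sterol sensing, uptake and efflux, 7 were higher and 9 lower. The element TCACNCCAC was found in 1 of 7 mevalonate promoters and in 0 of 10 of each other sterol list, beside 1.36% of tested genes.

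The treated libraries differed in these lists. Their medians for squalene to cholesterol were 0.63 and 0.24 above the COH mean, and for the mevalonate arm 0.46 and 0.14. Without nintedanib replicate 1 the medians were 0.23 and 0.13, and without replicate 2 they were 0.63 and 0.46. Fatty acid genes had 10 of 11 higher means and a median of 0.28, beside 0.62 for OHSS against COH. Without nintedanib replicate 1 the fatty acid median with the drug was 0.12, and without replicate 2 it was 0.61. Elovl6, a fatty acid elongase, stood at 207 and 218 CPM in COH, 313 and 279 CPM in OHSS and 322 and 305 CPM with nintedanib, a log2 fold change of 0.56 (SE 0.106). Scd1, a desaturase, stood at 159 and 126 CPM in COH, 398 and 370.1 CPM in OHSS and 351 and 205 CPM with nintedanib, and Acss2, which makes acetyl-CoA from acetate, at 28.9 and 27.6 CPM in COH, 47.7 and 58.8 CPM in OHSS and 46.0 and 40.5 CPM with nintedanib.

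Granulosa cell genes stood higher under the drug than in COH or OHSS. Of 18 members 13 had a higher mean than in COH, with a median log2 fold change of 0.31, beside -0.015 for OHSS against COH and 0.49 for nintedanib against OHSS. At an unadjusted p below 0.05, 8 were higher (5.62% over all genes) and 1 lower (4.08%), and edgeR called none over all genes. Inhba, the activin subunit, stood at 186 and 145 CPM in COH, 271 and 389.5 CPM in OHSS and 539 and 894 CPM with nintedanib, a log2 fold change of 2.11 (SE 0.318) against COH and 1.12 (SE 0.309) against OHSS. Bmpr1b, a receptor of oocyte growth factors, stood at 29.3 and 28.0 CPM in COH, 32.5 and 40.6 CPM in OHSS and 57.1 and 90.5 CPM with nintedanib, a log2 fold change of 1.36 (SE 0.248). Fst, which binds activin, stood at 81.8 and 62.3 CPM in COH, 68.6 and 99.5 CPM in OHSS and 133 and 209.7 CPM with nintedanib, and Nr5a2, a nuclear receptor needed for ovulation, at 207 and 178 CPM in COH, 164 and 228 CPM in OHSS and 314 and 344 CPM with nintedanib. These 4 genes were named for their small p against COH, and in each both treated libraries lay above all COH and OHSS libraries. Over the list, both treated libraries lay above both COH libraries for 9 of 18 members and below for 3 (22.3% and 22.7% over all genes).

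The list did not shift as 1 block. Inha, the inhibin alpha chain, stood at 1961 and 2155 CPM in COH, 2293 and 2087 CPM in OHSS and 3558 and 2879 CPM with nintedanib, whereas Foxl2 and Amhr2, which also mark granulosa cells, differed by 0.086 (SE 0.120) and 0.051 (SE 0.115). Amh, a hormone of small follicles, was lower at 178 and 121 CPM in COH, 79.5 and 98.0 CPM in OHSS and 93.5 and 109.99 CPM with nintedanib, and Gatm at 73.7 and 60.0 CPM in COH, 58.0 and 51.2 CPM in OHSS and 45.7 and 48.0 CPM with nintedanib. Summed levels were 5265 and 5123 CPM in COH, 4288 and 4824 CPM in OHSS and 6787 and 6238 CPM with nintedanib. Inha alone accounts for most of the rise of this sum over COH, so the sum does not describe the list as a whole. The median was 0.18 without COH replicate 2, with 4 members higher at an unadjusted p below 0.05, and 0.55 without COH replicate 1. Without nintedanib replicate 2 that count was 5. Oocyte markers had a median of -0.063 over 20 genes and lay -0.64 and 0.36 from the COH mean in the 2 treated libraries, and the part of tissue makeup in the granulosa values was not tested.

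Steroid synthesis genes were higher in part. Of 16 tested members 13 had a higher mean than in COH, with a median of 0.28, beside 0.31 for OHSS against COH. At an unadjusted p below 0.05, 5 were higher (5.62% over all genes). Cyp19a1, the aromatase that makes oestrogen, stood at 27.4 and 17.8 CPM in COH, 39.0 and 41.5 CPM in OHSS and 62.1 and 122 CPM with nintedanib, a log2 fold change of 2.02 (SE 0.376) against COH and 1.19 (SE 0.366) against OHSS. Cyp17a1, through which theca cells form androgens, stood at 214 and 459 CPM in COH, 1230.5 and 865 CPM in OHSS and 2464 and 734 CPM with nintedanib, a log2 fold change of 2.25 (SE 0.669) with a wide spread between the treated libraries. Star, which carries cholesterol into mitochondria, stood at 893 and 863 CPM in COH, 2722 and 1396 CPM in OHSS and 1484 and 1968 CPM with nintedanib, a log2 fold change of 0.98 (SE 0.336). Cyp11a1 differed by -0.12 (SE 0.186), and Lhcgr, the luteinizing hormone receptor, by -0.14 (SE 0.337). At an unadjusted p below 0.05 the higher members numbered 3 without COH replicate 1, 2 without COH replicate 2 and 3 without nintedanib replicate 2.

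Ovulation genes included some that stood above COH in both OHSS groups. Pgr, the progesterone receptor, without which follicles do not rupture, stood at 3.04 and 4.10 CPM in COH, 15.9 and 14.2 CPM in OHSS and 5.76 and 6.17 CPM with nintedanib, a log2 fold change of 0.74 (SE 0.219) against COH and -1.33 (SE 0.218) against OHSS. Zbtb16, a transcription factor that progestins and glucocorticoids induce, stood at 2.56 and 1.33 CPM in COH, 7.39 and 5.64 CPM in OHSS and 5.62 and 8.85 CPM with nintedanib. Adamts1, a protease of the cumulus matrix, stood at 35.6 and 33.5 CPM in COH, 40.3 and 43.8 CPM in OHSS and 49.2 and 90.9 CPM with nintedanib, and Btc, an epidermal growth factor receptor ligand, was low at 0.618 and 0.700 CPM in COH, 1.13 and 0.957 CPM in OHSS and 1.14 and 2.90 CPM with nintedanib. The 19 tested members had a median of 0.35, with 11 higher and 8 lower. The median ran from 0.23 without nintedanib replicate 2 to 0.57 without nintedanib replicate 1. Their number higher at an unadjusted p below 0.05 was 7 (5.62% over all genes). That number was smaller without COH replicate 1, COH replicate 2 or nintedanib replicate 2.

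Cell cycle genes lay slightly above COH in treated ovaries. Of 22 members, 19 had a higher mean, with medians of 0.23 for nintedanib against COH, -0.088 for OHSS against COH and 0.41 for nintedanib against OHSS. Mki67, the marker of cycling cells, stood at 57.3 and 44.6 CPM in COH, 65.8 and 51.6 CPM in OHSS and 85.8 and 83.1 CPM with nintedanib, a log2 fold change of 0.73 (SE 0.180). Ccne2, a cyclin of entry into DNA synthesis, stood at 9.36 and 8.72 CPM in COH, 9.97 and 11.2 CPM in OHSS and 13.5 and 16.1 CPM with nintedanib. Cdkn1b, the inhibitor p27, was lower at 159 and 218 CPM in COH, 172 and 166 CPM in OHSS and 115 and 131 CPM with nintedanib, a log2 fold change of -0.61 (SE 0.172). At an unadjusted p below 0.05, 3 members were higher (5.62% over all genes) and 1 lower (4.08%). None of the list was called by edgeR. DESeq2 called 2, Mki67 and Ccne2, beside 436 of the 19027 genes tested.

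**Figure D4:**
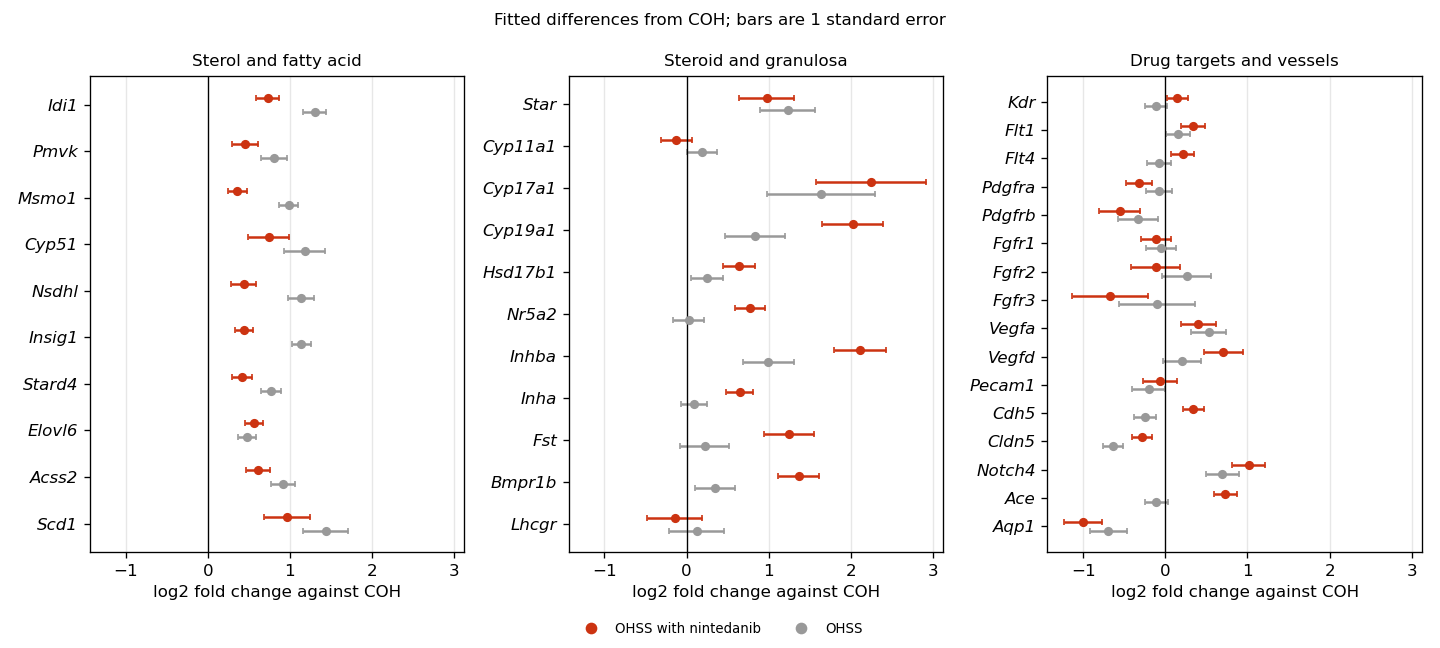
Fitted log2 fold change against COH (horizontal axis) with bars of 1 standard error for genes in 3 groups, for OHSS with nintedanib and for OHSS, which share the COH libraries. Sterol genes lie right of 0 in both with the OHSS points further out for most. Inhba, Fst, Bmpr1b and Nr5a2 lie further right with nintedanib. Of the kinase receptors, Kdr, Fgfr1 and Fgfr2 lie near 0 with nintedanib. Flt1 and Flt4 lie right of 0 and Pdgfra, Pdgfrb and Fgfr3 left of 0.

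The remaining lists mostly lay near COH or were split between the treated libraries. Medians were -0.12 for collagens, -0.094 for matrix and proteases, -0.024 for pericytes and smooth muscle, -0.063 for theca and stroma and -0.079 for luteal genes outside steroid synthesis. With 1 library left out the matrix median reached -0.30 without nintedanib replicate 1, that of collagens ran from -0.19 without nintedanib replicate 1 to -0.047 without nintedanib replicate 2, and those of pericytes, theca and luteal genes turned sign. Mitochondrial transcripts had a median of 0.022, beside 0.34 in OHSS against COH. Their median ran from -0.11 without COH replicate 1 to 0.093 without COH replicate 2. Immediate early genes, which respond to handling of tissue as well as to growth signals, had 12 of 14 lower means and a median of -0.41. The median for OHSS against COH was -0.47. In nintedanib replicates 1 and 2 the immediate early median was -0.93 and -0.036. Heat shock genes lay at -0.29 and 0.70, and erythroid genes, a sign of blood content, at -0.43 and -1.39 with 5 of 5 lower means. The erythroid median against COH was -0.82 with nintedanib and -0.86 for OHSS. Surface epithelium markers lay at -1.07 and 0.26 and oviduct markers at -1.0 and 0.78, so the treated replicates differed in attached tissue markers. The part of these differences in the other results was not tested.

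**Figure D5:**
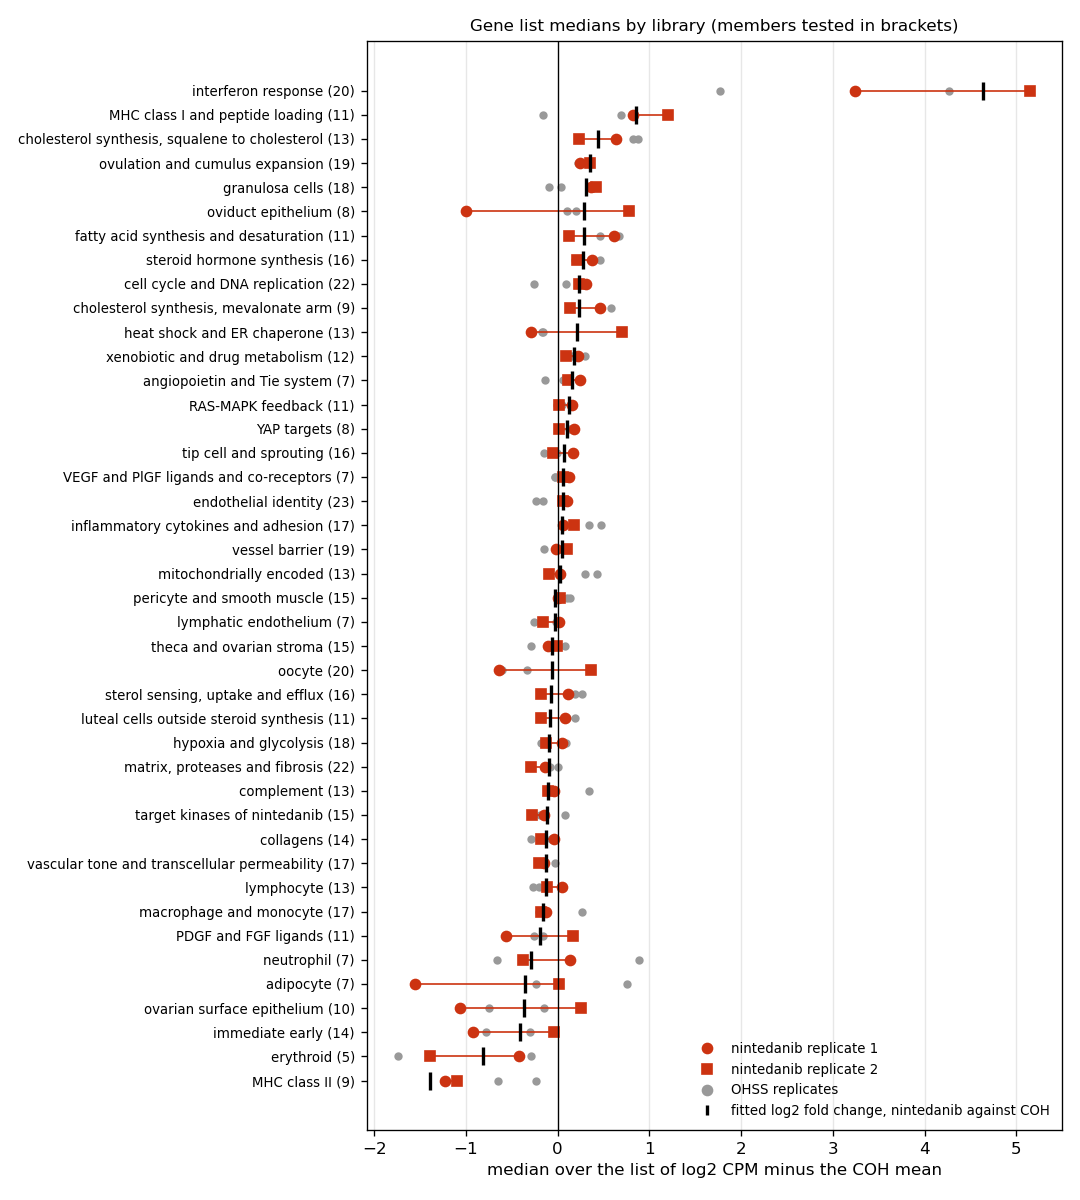
For each of 42 gene lists (vertical axis, number tested in brackets), the median log2 CPM minus the COH mean in each library, with a black tick for the fitted median log2 fold change of nintedanib against COH. Library values carry a prior count of 2, which draws low genes towards 0 and leaves the class II tick outside its points. The interferon list lies far right in all OHSS and treated libraries, and both treated libraries lie left of both OHSS libraries for class II.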

How the data were processed

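RNA of whole ovaries was sequenced as mRNA libraries, and the table the authors deposited holds raw whole-number counts per gene, per the file headers, for all 6 libraries. Deposited read summaries gave the read numbers. The build mm8 and the tools Trimmomatic 0.36, HISAT2 2.1.0 and StringTie 1.3.3b stand in the submitters' processing notes; for the counter, annotation release, strand setting and reads with several matches the entry is not given in the sources used here. Counts came to 72.1 to 74.0% of reads, or 144 to 148% of read pairs, so 2 counts are taken as 1 pair where counts are near 0, and intervals and the floor of 6 counts cover counting error only.

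Groups and replicate numbers came from sample titles. In edgeR 4.0.16 (R 4.3.3), filterByExpr kept 19027 genes, and TMM factors were 0.961 to 1.03. The quasi-likelihood test was fitted to all 6 libraries with 3 group means, leaving 3 residual and 2.41 prior degrees of freedom, and p-values were adjusted by Benjamini-Hochberg over all genes tested. Standard errors were derived from the F statistic. The 42 gene lists, with 541 tested genes, are described by counts and medians. The members, lists, naming rule and tests were chosen with earlier results of these data known. The rule names called genes and, up to 15 a direction, the genes of smallest p with a mean of at least 5 CPM and groups that do not overlap, the top 10 that also differ in OHSS and the top 10 that do not, a fixed set of drug targets and steroid genes, and up to 4 members of a list; other genes are marked as chosen later, and some genes the rule allows are not reported here. Alternatives were other scalings and filters, DESeq2 1.42.0, limma 3.58.1 voom, a robust prior, a fit of the 2 groups, halved counts, a replicate block and each library left out. Near-identical and overlapping genes were found with blastn 2.17.0 in GENCODE M21, whose IDs matched 18980 of the 19027 tested genes; its coordinates are not printed. The script was tested on simulated data.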

Additional observations from a re-analysis of the deposited data

How the results depend on the processing

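With 2 libraries a group, the number of called genes depends on the method and on single libraries. The 5 calls of the edgeR fit became 436 with DESeq2, 2 with limma voom, 2 in a fit of the 2 groups only and 3 with halved counts, while other scalings, filters and a robust prior gave 5 or 6. With each library left out in turn the number called ran from 0 to 53, and the number at an unadjusted p below 0.05, 1845 in the full fit, from 862 to 2560. With a replicate block the calls were 2, of which 1 was among the 5. Whether the replicate numbers pair the libraries is not said. Differences between replicates 1 and 2 correlated at 0.055 between nintedanib and COH, but a low correlation cannot show that the libraries are unpaired. Directions of named genes turned only in leave-one-out fits, 7 times, with 1710 values keeping their direction and side of the threshold, 68 newly past it and 32 no longer past it. Log2 fold changes then ran from -1.21 to 0.19 for Fgfr3, -0.65 to 0.23 for Lhcgr (0.13 without COH replicate 2), -0.25 to 0.0062 for Fgfr1, -0.34 to 0.073 for Fgfr2, -0.32 to 0.046 for Cyp11a1 and -0.65 to 2.31 for H2-Eb1. With 1 library left out, the median log2 fold change turned sign for 21 of the 42 gene lists and moved over 1.5 times for 16 more. It did neither for 5: interferon response, MHC class I, MHC class II, steroid synthesis and cell cycle. The cause was not tested. No per-gene value can be more precise than 2 libraries allow.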

Other observations

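Several genes outside the naming rule had values that a reader may wish to follow, and all were chosen after their values were seen. Pcdhb19, a clustered protocadherin, stood at 7.34 and 9.81 CPM in COH and 6.04 and 10.4 CPM in OHSS and had 0 counts in both treated libraries. Against a floor of 6 counts per library it was at least 43.4-fold lower than in COH, with an edgeR quasi-likelihood adjusted p of 0.120 and a DESeq2 adjusted p of 2.91e-09. Ctgf, a target of YAP signalling also known as Ccn2, stood at 39.8 and 39.3 CPM in COH, 59.5 and 57.1 CPM in OHSS and 96.8 and 157 CPM with nintedanib, a log2 fold change of 1.68 (SE 0.237) against COH and 1.12 (SE 0.233) against OHSS. Its partner Cyr61 differed from COH by 0.46 (SE 0.202), and the 8 YAP targets tested had a median of 0.10. In fits without 1 library that median ran from -0.02 without nintedanib replicate 2 to 0.23 without COH replicate 1. Gsta4, a glutathione transferase for lipid aldehydes, stood at 89.4 and 93.2 CPM in COH, 108 and 109 CPM in OHSS and 138 and 139 CPM with nintedanib, a log2 fold change of 0.60 (SE 0.0888) against COH. Apoe, the lipoprotein component, was at 579 and 562 CPM in COH, 479 and 302 CPM in OHSS and 273 and 316 CPM with nintedanib, a log2 fold change of -0.95 (SE 0.232).

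Ak4 stood apart from the list in which it was placed. Of 18 tested hypoxia and glycolysis genes, 7 had a higher and 11 a lower mean in treated ovaries than in COH, with a median log2 fold change of -0.091. It ran from -0.13 without nintedanib replicate 1 to 0.0082 without nintedanib replicate 2. Ndrg1 and Pfkfb4, other hypoxia-responsive genes, stood lower, at 42.4 and 55.8 CPM in COH and 32.3 and 20.4 CPM with nintedanib and at 23.3 and 21.3 CPM in COH and 13.6 and 13.4 CPM with nintedanib.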
